A study of Homo sapiens with 3 samples.

Results

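The antiviral effector enzymes and restriction factors described here are 10 genes of the 26485 in the count table: RSAD2, CMPK2, MX1, MX2, ISG20, ZC3HAV1, SAMD9, SAMD9L, PLSCR1 and RTP4. They were picked by name, with their counts in these libraries already known, so every difference of theirs between the libraries is a description and carries no test. All 10 names were found in the table. RNA was counted in 3 libraries of HEC1B, an established human endometrial cancer cell line, at 48 h. The control library was made with the siRNA siNC in cells labelled WT. The knockdown libraries were made with siPRMT6-1 and siPRMT6-2, different siRNAs against PRMT6, a protein arginine methyltransferase that modifies histones, and each siRNA has 1 library. The sample descriptions call these siRNAs si2 and si3, so each value per siRNA rests on both labels being right. All the values come from 1 cell line, and the effect of an siRNA cannot be told apart from that of its library.

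Interferons are secreted proteins that warn cells of infection. Their receptors switch on STAT and IRF transcription factors, and these act on DNA elements near the start sites of their target genes. The products of the genes described here hinder viruses in different ways, some by acting on viral RNA or particles and others through nucleotide supply, translation or membranes of the host cell. Most are scarce in resting epithelial cells.

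The RefSeq start sites of these genes show letters that the interferon-activated factors can bind. The windows reached from 250 bases before a start site to 50 after it (GRCh38.p14), and 9 of the 10 genes had at least 1 window, MX2 not among them. The core of the interferon-stimulated response element, GAAA and GAAA with any 2 bases between them on either strand, was found in the windows of 6 of the 9 genes, against 4.38% of the 27305 genes with windows. Counted by window it was in 8 of 15, against 3.57% of 35116 windows of the same length. The core nearest to a start site is printed here for each of the 6 genes, on the strand of the gene, 5′ to 3′, with the core in capitals. They are shown because genes with many counts and genes at 0 alike hold it. RSAD2 is shown from the start of its window to the last base before the counted gene model (chr2:6877527-6877664, plus strand). The others are 30 bases around the site, from ISG20 (chr15:88638937-88638966, plus), SAMD9 (chr7:93118096-93118125, minus), PLSCR1 (chr3:146544667-146544696, minus), MX1 (chr21:41420559-41420588, plus) and RTP4 (chr3:187368357-187368386, plus).
RSAD2: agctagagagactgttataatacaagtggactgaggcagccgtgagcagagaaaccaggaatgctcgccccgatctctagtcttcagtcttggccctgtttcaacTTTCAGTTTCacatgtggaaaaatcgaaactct
ISG20: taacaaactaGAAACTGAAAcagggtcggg
SAMD9: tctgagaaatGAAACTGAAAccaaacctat
PLSCR1: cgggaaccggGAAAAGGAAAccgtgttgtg
MX1: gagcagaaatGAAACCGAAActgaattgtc
RTP4: accgaacaccGAAACTGAAActgtttgtct

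Counted from the start site, with bases before it negative, the printed core began at −145 in RSAD2, −69 in ISG20, −136 in SAMD9, −79 in PLSCR1, −18 in RTP4 and 11 in MX1. The start sites used for ISG20 and PLSCR1 lie 3379 and 234 bases inside the counted gene models. The cores of both thus lie within the counted spans. RTP4 held a further core that began at −42, and MX1 held another that began at −196 from the third of its start sites. No match of this core was found in the windows of CMPK2, ZC3HAV1 and SAMD9L, which says only that these letters are not in these windows.

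A tighter repeat, GAAANGAAA on either strand, was searched after the windows had been seen. It was in the windows of 5 of the 9 genes, against 3.87% of genes. RSAD2 had 4 copies before a start site that lies 11892 bases upstream of the start nearest to the counted model. That window shares 165 bases with a window of CMPK2, which runs on the opposite strand, and both copies in the CMPK2 window are the same bases as copies in the RSAD2 window. The copy that begins 10 bases after the CMPK2 start is shown on the CMPK2 strand (chr2:6865790-6865819, minus), with the repeat in capitals, because both genes hold it.
CMPK2: aacgcttcgcTTTCGTTTCccgctggcgcc

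In MX1 and SAMD9 a tight repeat overlapped the wider core. The gamma-activated site TTCNNNGAA, which STAT dimers bind, was found in windows of 3 of the 9 genes, MX1, PLSCR1 and ZC3HAV1, against 9.38% of genes. In MX1 it overlapped the core before the third of the start sites. These matches are descriptions of sequence, and no binding was measured.

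**Figure D1:**
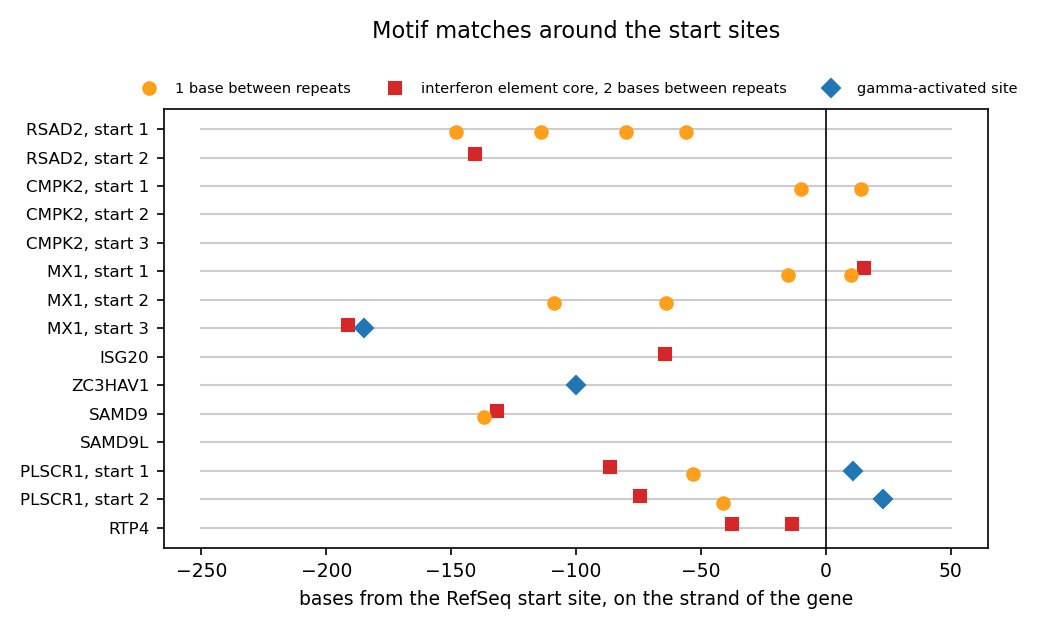
Positions of motif matches in the RefSeq windows of 9 genes, in bases from the start site on the strand of the gene; each grey line is 1 window from 250 bases before to 50 after the start. Squares mark the interferon element core, circles the tighter repeat and diamonds the gamma-activated site; RSAD2 and CMPK2 show the repeats of their shared stretch, and the SAMD9L line is empty.

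The libraries held 410916 counts (siNC), 381628 (siPRMT6-1) and 362080 (siPRMT6-2), which is shallow: 3 counts, the limit used for a gene at 0, equal 7.78, 8.09 and 9.09 CPM (counts scaled to library size, with TMM). For PRMT6 itself, siNC held 25 counts, siPRMT6-1 held 4 and siPRMT6-2 held 7, and the other sets of 3 counts keep this order. The siPRMT6-2 library stands apart from the other libraries in interferon-stimulated genes, so the counts of siPRMT6-1 stand beside each of its counts. Levels per length, their order and shares of counts describe siPRMT6-2 alone. Per the file header, reads were counted with the strand setting 1. Where a gene and the antisense gene named after it overlap, the antisense one held the larger count of siNC in 122 of 148 cases. The strand behind a count is therefore uncertain for every gene, and its part in the results was not tested. None of the 10 genes shares exon bases with an opposite-strand gene of the table. Of 8 epithelial markers, KRT8 had 1329, 681 and 770 counts, KRT18 129, 85 and 95 and PAX8 158, 117 and 227, while CDH1 and KRT19 were at 0 in all libraries. The 9 leukocyte markers summed to 8, 9 and 10 counts with PTPRC, CD3E, MS4A1 and CD14 among those at 0. Of the 3 plasmacytoid dendritic cell markers, which summed to 7, 6 and 9, CLEC4C and LILRA4 were at 0. The 6 fibroblast markers summed to 524, 360 and 373, with COL1A1 at 515, 354 and 370 and 4 at 0, and the 4 endothelial markers to 19, 18 and 6.

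Of the 10 genes, 7 had more counts in siPRMT6-2 than in both other libraries, with the exact binomial interval of both ratios above 1, and CMPK2, MX1 and RTP4 were at 0 or 1 count in every library. The same held for 465 of all 26485 genes in the table (1.76%), and nothing is read from the 7, since the genes were chosen on this contrast. Only 16244 of the 26485 had any count, and a gene at 0 in every library cannot differ beyond counting error. Such shares of all genes in the table are therefore lower than among genes with counts. The summed counts of all 10 were 25, 26 and 374, or 0.00608%, 0.00681% and 0.103% of each library. Scaled for depth, the sum with siPRMT6-1 was 1.08 times siNC (95% exact binomial interval 0.601 to 1.95, counting error only) and with siPRMT6-2 17.5 times (11.7 to 27.4). The sum in siPRMT6-2 was 16.2 times that in siPRMT6-1 (10.9 to 25.1). All the counts outside siPRMT6-2 came from ZC3HAV1 and PLSCR1, and the other 8 genes together had 0, 0 and 233. In bulk RNA, more cells with a transcript and more transcript per cell cannot be told apart.

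**Figure D2:**
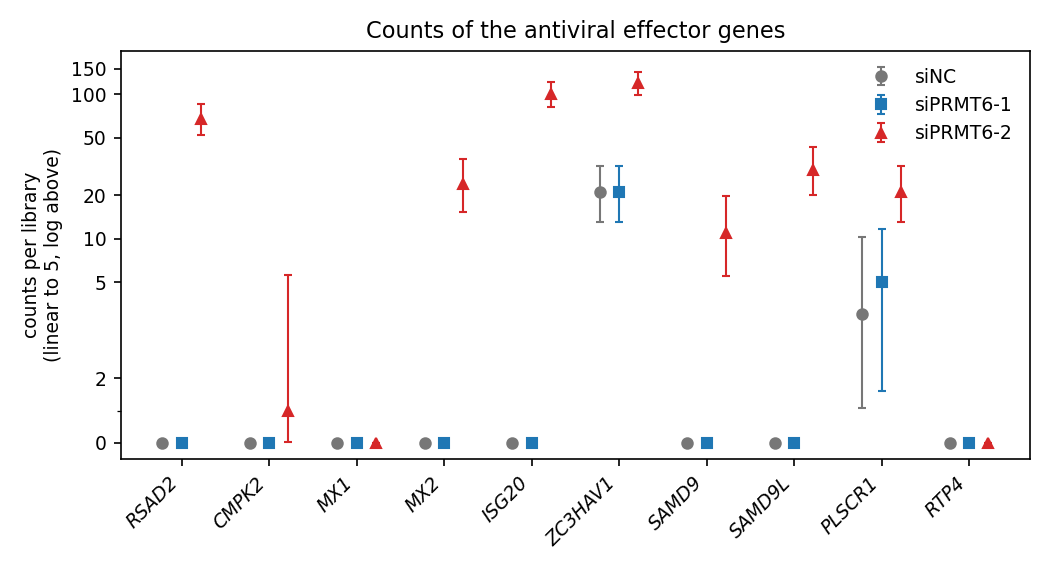
Counts of the 10 genes in the siNC, siPRMT6-1 and siPRMT6-2 libraries, 1 point per library; the axis is linear to 5 and logarithmic above, and bars are 95% exact Poisson intervals for counts above 0. In 7 genes the siPRMT6-2 point lies at 11 to 120 counts and above both other libraries, and MX1 and RTP4 are at 0 in all 3.

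RSAD2 encodes viperin, a radical SAM enzyme that turns the nucleotide CTP into an analog that ends RNA chains. It had 0, 0 and 67 counts (95% exact Poisson interval in siPRMT6-2 51.9 to 85.1), and only the siPRMT6-2 library held any. Against the limit of 3 counts in siNC it was at least 26.1-fold higher with siPRMT6-2, and at least 25.1-fold higher than with siPRMT6-1. Every such bound here sets the observed count against the limit. It leaves out the counting error of that count, so the true fold may be lower. CMPK2 encodes a mitochondrial nucleotide kinase that makes CTP from its precursors and lies beside RSAD2, in the opposite direction, with 11029 bases between the counted models (chromosome 2, 6840553 to 6866635, against 6877665 to 6898232). Unlike its neighbour, CMPK2 had 0, 0 and 1 counts, which is under the limit in every library. In siPRMT6-2 the level of RSAD2 per exonic base was 79.2 times that of CMPK2, with a counting interval of 13.7 to 3170 that is wide because CMPK2 rests on 1 count. In GENCODE release 29 the RSAD2 gene reaches back over the start of CMPK2 on the other strand. NRIR, a noncoding gene 88 bases past the other end of CMPK2 on the same strand, had 0, 0 and 1 counts. Nearly all counts at this locus were thus assigned to RSAD2, and the part of the uncertain strand in this was not tested.

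MX1 and MX2 encode dynamin-like GTPases that form rings around viral nucleoprotein or capsids. MX2 (chromosome 21, 41362023 to 41408942, plus strand) had 0, 0 and 24 counts (15.4 to 35.7 in siPRMT6-2), at least 9.35-fold higher than siNC and at least 8.99-fold higher than siPRMT6-1. MX1, 11615 bases further along on the same strand (41420558 to 41459214), had 0 counts in all 3 libraries. The limit of 3 counts equals 2.48 CPM per kb of exon for MX1 in siPRMT6-2. The observed level of MX2 per kb was 9.89 times that limit, with counting error left out. The counts of the pair therefore differed within the same library. A signal of MX1 below the limit was not detectable at this depth. The strand behind these counts is uncertain too, and its part in the 0 of MX1 was not tested. GENCODE release 29 places a noncoding gene, AP001610.1, on the opposite strand within MX1 (41441056 to 41445708), and it was not analysed here. The outer neighbours FAM3B and TMPRSS2 were at 0 in all libraries.

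ISG20 encodes an exonuclease that degrades single-stranded RNA. It lies on chromosome 15 (88635637 to 88656344, plus strand) and had 0, 0 and 100 counts (81.4 to 122 for the last). Its level with siPRMT6-2 was at least 39.0-fold higher than in siNC and at least 37.4-fold higher than with siPRMT6-1. The gene next to it on the same strand, AEN, encodes a related exonuclease that p53 induces and had 11, 10 and 14 counts. For AEN the ratio to siNC was 0.946 in siPRMT6-1 (0.36 to 2.45) and 1.49 in siPRMT6-2 (0.627 to 3.62), and neither difference exceeded counting error. Neighbouring exonuclease genes thus had separate patterns, ISG20 with counts in a single library and AEN with similar counts in all.

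ZC3HAV1 encodes the zinc finger antiviral protein ZAP, which binds CpG-rich viral RNA and brings it to decay enzymes. It lies on chromosome 7 (139043520 to 139109719, minus strand) and had 21, 21 and 120 counts. With siPRMT6-1 it was 1.04 times siNC (0.541 to 2), and with siPRMT6-2 6.68 times (4.18 to 11.2). The siPRMT6-2 level was 6.42 times that with siPRMT6-1 (4.01 to 10.7). The control and siPRMT6-1 were alike in count, and siPRMT6-2 was above both. Its shorter relative ZC3HAV1L, the next gene on the same strand, had 27, 32 and 18 counts and was 0.779 times siNC with siPRMT6-2 (0.404 to 1.47). GENCODE release 29 places a processed pseudogene, AC018644.1, inside ZC3HAV1 on the same strand.

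SAMD9 and SAMD9L are neighbouring, similar genes on chromosome 7 whose large cytoplasmic proteins restrict poxviruses and slow translation. SAMD9 (93099513 to 93118023, minus strand) had 0, 0 and 11 counts (5.49 to 19.7 in siPRMT6-2). SAMD9L (93130054 to 93148388, minus strand) had 0, 0 and 30 (20.2 to 42.8). With siPRMT6-2, SAMD9 was at least 4.29-fold higher than siNC and at least 4.12-fold higher than siPRMT6-1. SAMD9L was at least 11.7-fold and at least 11.2-fold higher in the same order. These bounds leave out the counting error of the siPRMT6-2 counts, which is wide for the 11 counts of SAMD9. In siPRMT6-2 the level of SAMD9L per exonic base was 2.61 times that of SAMD9 (1.27 to 5.78). As relatives they may share reads, so the split between them is uncertain. HEPACAM2, on the other side of SAMD9L, was at 0 in all libraries.

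PLSCR1 encodes a phospholipid scramblase of the plasma membrane that limits viral entry and also enters the nucleus. It lies on chromosome 3 (146515180 to 146544841, minus strand) and had 4, 5 and 21 counts. The ratio of PLSCR1 to siNC was 1.3 in siPRMT6-1 (0.28 to 6.56) and 6.14 in siPRMT6-2 (2.07 to 24.6). The siPRMT6-2 level was 4.72 times that with siPRMT6-1 (1.73 to 16). Its relatives on either side, PLSCR2 and PLSCR5, were at 0 in all libraries. RTP4, a zinc finger protein that carries receptors to the cell surface and inhibits flavivirus replication, had 0 counts in all 3 libraries. It lies on chromosome 3 (187368380 to 187371581, plus strand) and is the shortest of the 10 genes with 1011 exonic bases, so its limit in siPRMT6-2 was 8.99 CPM per kb, against 2.19 for CMPK2 and 2.48 for MX1. A moderate level of RTP4 was therefore less visible than the same level of MX1.

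**Figure D3:**
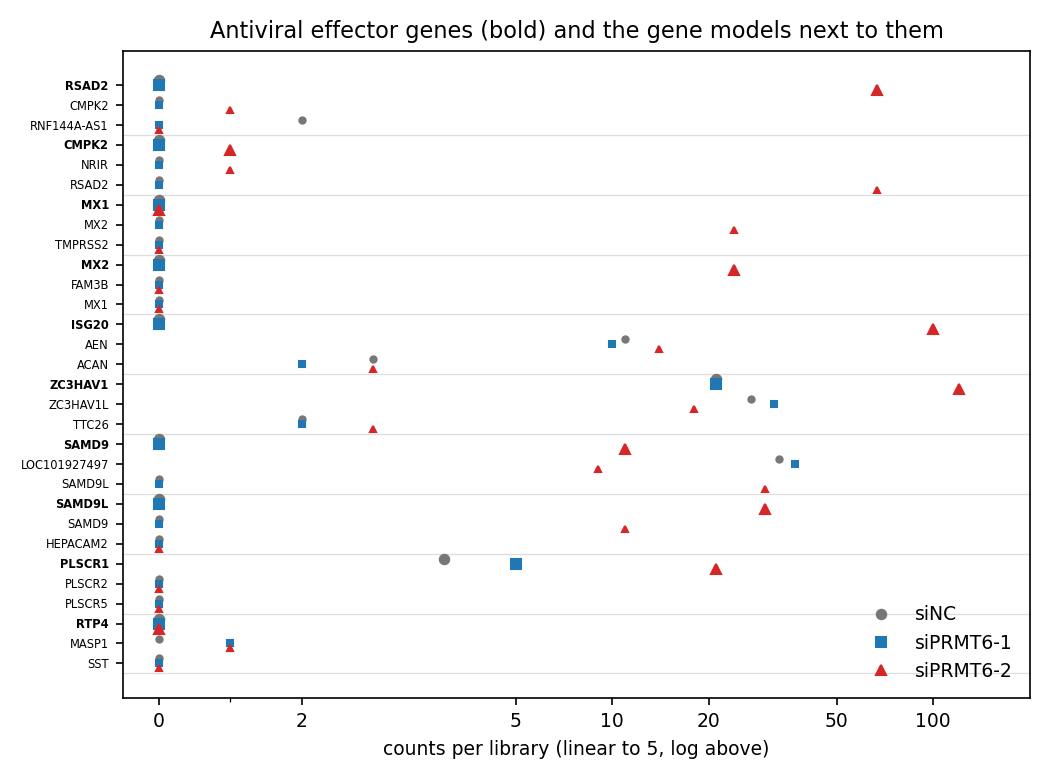
Counts in each library for the 10 genes (bold) and the gene model next to each on either side in the count table; the axis is linear to 5 and logarithmic above. The siPRMT6-2 points of RSAD2, MX2, ISG20 and ZC3HAV1 lie at 24 to 120, while CMPK2, MX1, AEN and ZC3HAV1L beside them lie at 0 to 18.

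Per length, the levels in siPRMT6-2 spanned a wide range. ISG20 had 78 CPM per kb of exon (63.5 to 94.9), RSAD2 57.8 (44.8 to 73.4) and ZC3HAV1 46.2 (38.3 to 55.2). PLSCR1 followed with 28.8 (17.8 to 44), MX2 with 24.6 (15.7 to 36.5), SAMD9L with 12.7 (8.57 to 18.1), SAMD9 with 4.86 (2.43 to 8.7) and CMPK2 with 0.73 (0.0185 to 4.07). Neighbours in this order did not differ beyond counting error for ISG20 and RSAD2 (ratio 1.35, 0.981 to 1.87), RSAD2 and ZC3HAV1 (1.25, 0.914 to 1.7), PLSCR1 and MX2 (1.17, 0.621 to 2.2) and SAMD9 and CMPK2 (6.66, 0.968 to 287). Neighbours that differed beyond counting error were MX2 and SAMD9L (1.93, 1.08 to 3.42) and SAMD9L and SAMD9 (2.61, 1.27 to 5.78), while for ZC3HAV1 and PLSCR1 the ratio was 1.6 with an interval whose lower end is at 1. CMPK2 rests on 1 count, so any ratio to it is loose. As a share of the 374 counts, which also grows with the length of a gene, ZC3HAV1 held 32.1% (exact binomial interval 27.4 to 37.1), ISG20 26.7% (22.3 to 31.5) and RSAD2 17.9% (14.2 to 22.2).

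**Figure D4:**
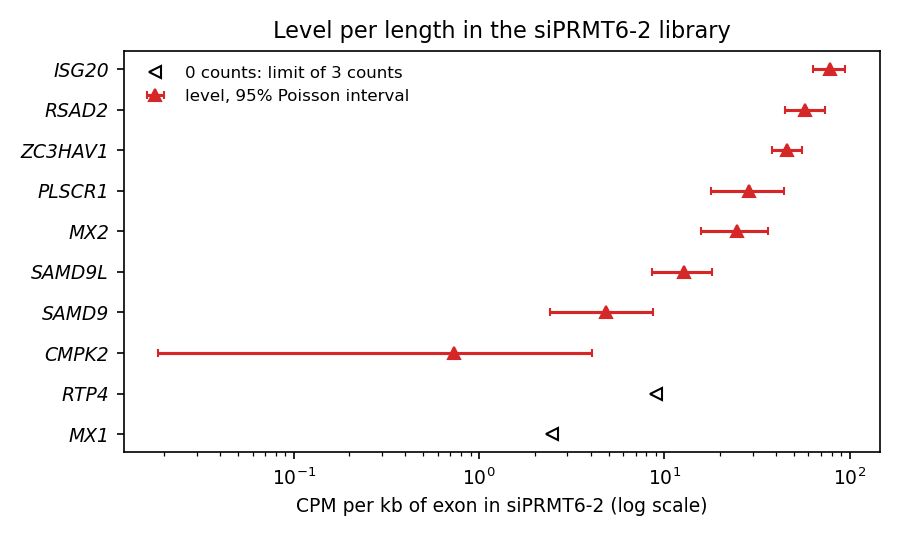
Level per kilobase of exon (CPM per kb, log scale) in the siPRMT6-2 library, with 95% exact Poisson intervals that cover counting error only; open arrows give the limit of 3 counts for genes at 0. ISG20, RSAD2 and ZC3HAV1 lie between 46.2 and 78, and MX1 and RTP4 have limits of 2.48 and 8.99.

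The comparison of both knockdown libraries with siNC asks which genes differ when PRMT6 is depleted. The quasi-likelihood test of edgeR called 0 of 6803 genes (0.0%), with 186 at an unadjusted p under 0.05, and DESeq2 called 0, with 12 at an unadjusted p under 0.05. The spread in that test is the gap between the siRNAs, and separate cultures are not named in the labels, so a p-value measures only the spread between these libraries. RSAD2, MX2, ISG20, ZC3HAV1, SAMD9L and PLSCR1 passed the filter on low counts, and none of them was called. Of these, RSAD2, MX2, ISG20, SAMD9L and PLSCR1 passed through siPRMT6-2 alone. PLSCR1 had 4 and 5 counts in the other libraries, under the minimum count of 10, and the rest were at 0 there. SAMD9, CMPK2, MX1 and RTP4 did not pass. An older form of the edgeR fit called 32 genes, all higher (0.47% of those tested), with RSAD2, ISG20 and SAMD9L among them. A level at least 4-fold above siNC was reached by 13 genes with siPRMT6-1 (0.191%) and by 114 with siPRMT6-2 (1.68%). Of the 6 genes that passed, 0 were among the former and 6 among the latter, and 0 were among the 25 genes at least 4-fold lower with siPRMT6-2 (0.367%), counts from which nothing is read, since the genes were chosen on this contrast. Their median log2 difference was 0.00 with siPRMT6-1 and 3.98 with siPRMT6-2, or 3.39 with genes at 0 set to their limit. Over ZC3HAV1 and PLSCR1, the 2 with counts in siNC, it was 0.16 and 2.37, against 0.01 and 0.01 over all genes tested. Of the 2, only ZC3HAV1 passed the filter without its siPRMT6-2 counts.

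At least 10 counts in a single library, with 0 in both others, were uncommon. Of 11131 genes at 0 in both siNC and siPRMT6-1, 28 had at least 10 counts in siPRMT6-2 (0.252%). The 11131 include genes at 0 in all libraries, as only 16244 genes of the table had any count. ISG20, RSAD2, SAMD9L, MX2 and SAMD9 were 5 of the 28, at ranks 3, 7, 13, 15 and 28 by count. Nothing is read from the 5, since the effector genes were chosen on this contrast. The reverse searches found no such gene: 0 of 10922 genes at 0 in both knockdown libraries had at least 10 counts in siNC, and 0 of 11015 at 0 in siNC and siPRMT6-2 had at least 10 in siPRMT6-1. A different 5 of the effector genes had at least 30 counts over the 3 libraries: RSAD2, ISG20, SAMD9L, ZC3HAV1 and PLSCR1. Their median share of scaled counts was 0, 0 and 100%. This median does not describe ZC3HAV1 (21, 21 and 120 counts) and PLSCR1 (4, 5 and 21), which had counts in every library. Genes near it are those of siPRMT6-2 alone, the contrast on which the effector genes were chosen. Among 5588 other genes of that depth, 10 had exactly these shares, with all their counts in siPRMT6-2. The 8 with the most counts were IFI6 (330), OAS2 (133), IFITM1 (89), HLA-B (82), CCL5 (74), CCL3L1 (50), IFIT2 (46) and IFI27 (39). HLA-B and CCL3L1 have near-identical relatives and are uncertain.

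Other antiviral effectors, in a list of 60 genes in the table that was made with earlier results of these data known, summed to 732, 831 and 3190 counts. Of them 33 passed the filter, and 9 of these were at 0 in both other libraries. Others, such as PML, OAS3 and ISG15, had under 10 counts in both and also passed through siPRMT6-2 alone. At least 4-fold higher than siNC were 20 with siPRMT6-2 and 0 with siPRMT6-1, against 1.68% and 0.191% of all genes tested. The filter let in such genes by their siPRMT6-2 counts, so nothing is read from the 20. The edgeR test called 0 of the 33 and its older form 12. With siPRMT6-1, 2 of the 60 were above siNC beyond counting error, against 1.71% of all genes in the table. They were IFITM3, whose product blocks viral fusion, with 103, 158 and 449 counts (ratio 1.6 with siPRMT6-1, 1.24 to 2.07), and MOV10, an RNA helicase gene, with 32, 54 and 68 (1.76, 1.11 to 2.81). IFITM3 has near-identical relatives and is uncertain. The median log2 difference was 0.00 with siPRMT6-1 and 3.12 with siPRMT6-2, or 0.15 and 1.8 over the 21 with counts in siNC. HELZ2, a helicase and coactivator, had 15, 23 and 273 counts, or 21.3 times siNC with siPRMT6-2 (12.7 to 38.5) against 1.6 with siPRMT6-1 (0.798 to 3.29). PML, the organiser of nuclear bodies, had 7, 7 and 66. The RNA-editing enzyme gene ADAR had 38, 47 and 118, and BST2, whose product tethers virions to the membrane, had 0, 0 and 16.

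A few of these 60 genes had fewer counts in siPRMT6-2 than in siNC. APOBEC3B, a cytidine deaminase gene that shares exon bases with an opposite-strand gene, had 17, 13 and 9 counts and was 0.619 times siNC with siPRMT6-2 (0.243 to 1.47), within counting error. SERINC5, which lowers the infectivity of retroviral particles, had 19, 10 and 5, or 0.308 times siNC with siPRMT6-2 (0.0898 to 0.852), against 0.548 with siPRMT6-1 (0.227 to 1.24). With siPRMT6-2, 2 of the 60, SERINC5 and KHNYN, were below siNC beyond counting error. This is near the 2.45% of all genes in the table, a share that includes genes at 0 in every library. Nothing is read from it. In all, 10 of the 60 genes were at 0 in all libraries.

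Upstream of these genes, interferon ligands, receptors and signalling genes summed to 164, 197 and 419 counts over 27 genes. STAT2 and IRF9 encode transcription factors that interferon signalling activates. STAT2 had 6, 4 and 27 counts, a ratio to siNC of 5.26 in siPRMT6-2 (2.13 to 15.6) and 0.694 in siPRMT6-1 (0.144 to 2.93). IRF9 had 1, 1 and 11. The receptor gene IFNAR1 had 6, 9 and 12, and the kinase gene TYK2 had 12, 15 and 17. Of 13 genes that passed the filter, 4 were at least 4-fold higher with siPRMT6-2 and 0 with siPRMT6-1, against 1.68% and 0.191% of all genes tested. Of these 4, STAT2, IRF1 and USP18 had under 10 counts in both other libraries and passed through siPRMT6-2 alone. The edgeR test called 0 of the 13 and its older form 1. The median log2 difference over these 13 was 0.45 with siPRMT6-1 and 1.09 with siPRMT6-2, against 0.01 and 0.01 over all genes tested. With siPRMT6-1 the ratio to siNC left out 1 for 0 of the 27. With siPRMT6-2, 8 of the 27 were above siNC beyond counting error and 0 below, against 813 and 649 of all 26485 genes.

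Genes of partner proteins, with which the effectors work, showed no 4-fold difference where they passed the filter, though some differed beyond counting error. Over 15 of their genes that passed the filter the median log2 difference was −0.18 with siPRMT6-1 and −0.19 with siPRMT6-2, and none was 4-fold higher or lower. Both forms of the edgeR test called 0. Of 19 partner genes in the table, 2 were above siNC with siPRMT6-2 beyond counting error and 4 below. Over all 26485 genes, which include those at 0 in every library, 813 were above and 649 below (2.45%). With siPRMT6-1, 1 of the 19 was above and 0 below, against 454 and 535 of all genes. ZAP works with the ubiquitin ligase TRIM25 and the nuclease KHNYN. TRIM25 had 27, 22 and 51 counts, a ratio to siNC of 2.21 in siPRMT6-2 (1.36 to 3.66) and 0.848 in siPRMT6-1 (0.46 to 1.55). KHNYN had 117, 116 and 65, a ratio of 0.649 in siPRMT6-2 (0.472 to 0.887) and 1.03 in siPRMT6-1 (0.791 to 1.35), and shares exon bases with an opposite-strand gene. Both are also in the list of other antiviral effectors. Viperin receives its iron-sulfur cluster through CIAO1, which had 13, 11 and 5 counts. The helicase genes DDX39A and DDX39B, whose products bind MX1, had 53, 40 and 25 and 65, 45 and 47. With siPRMT6-2 their ratios to siNC were 0.551 (0.328 to 0.903) and 0.845 (0.568 to 1.25). DDX39B shares exon bases with an opposite-strand gene. IRAK1, a signalling kinase that viperin binds, had 185, 153 and 85, or 0.537 times siNC with siPRMT6-2 (0.41 to 0.698), against 0.861 with siPRMT6-1 (0.69 to 1.07).

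Of 21 relatives of the 10 genes by sequence or enzyme class, 7 were at 0 in all libraries. Beyond counting error 2 were lower than siNC with siPRMT6-2 (DNM2 and DNM1L) and 1 was higher (PARP12). Over all 26485 genes in the table, 649 were lower (2.45%) and 813 were higher. The dynamin genes DNM2 and DNM1L, relatives of MX1 and MX2, had 119, 92 and 49 and 85, 80 and 50 counts. DNM2 was 0.481 times siNC with siPRMT6-2 (0.338 to 0.677), against 0.805 with siPRMT6-1 (0.606 to 1.07). DTYMK, a nucleotide kinase gene, had 24, 22 and 12, and ISG20L2, a nucleolar relative of ISG20, had 12, 8 and 9. PARP12, a zinc finger relative of ZC3HAV1 that interferon induces, had 1, 6 and 36 counts. Of the 10 relatives that passed the filter, PARP12 alone was at least 4-fold higher with siPRMT6-2, against 1.68% of all genes tested. It had passed through its siPRMT6-2 counts alone. The median of these 10 was −0.05 with siPRMT6-1 and −0.34 with siPRMT6-2. The edgeR test called 0 of them and its older form 1, against 0.0% and 0.47% of all genes tested.

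**Figure D5:**
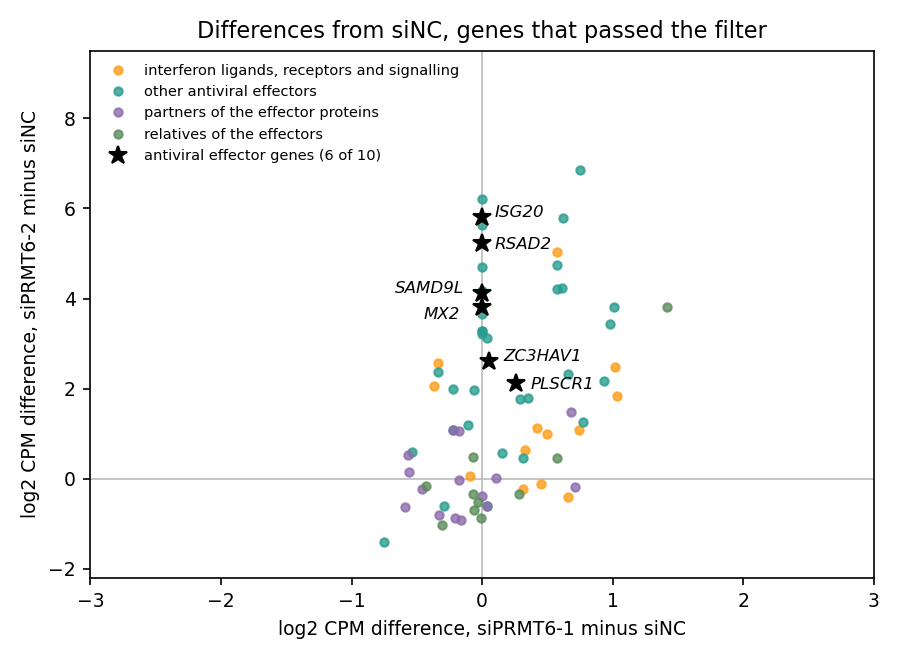
Log2 CPM difference from siNC with siPRMT6-1 (horizontal) and siPRMT6-2 (vertical) for the 6 effector genes that passed the filter (stars) and 4 gene lists (circles), 1 point per gene; both axes share the siNC library. The stars lie at 0.00 to 0.26 on the horizontal axis and 2.12 to 5.8 on the vertical axis, and partner genes lie within 4-fold of siNC on both.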

How the data were processed

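RNA of 3 HEC1B libraries was analysed from the authors' deposited whole-number counts per gene, which carry no normalization. The submitters' processing notes name hg38, STAR 2.7.8a and featureCounts 2.0.10. The header gives version 2.0.1 for the counter, with strand setting 1, UCSC gene models, and reads over several genes added to each. Input names in the header are marked umi and dedup. Per the labels' protocols, the kit was stranded and for low amounts of total RNA.

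The quasi-likelihood test of edgeR 4.0.16 (R 4.3.3, TMM, filterByExpr with a minimum count of 10 and a minimum total of 15, Benjamini-Hochberg threshold 0.05) set both knockdown libraries against siNC over 6803 genes, with 1 residual and 12.8 prior degrees of freedom. It was also run on simulated data in which genes rose in both knockdown libraries together. That setting differs from a rise in siPRMT6-2 alone, so it does not show how the test treats such genes. DESeq2 1.42.0 was an alternative. With 1 library per siRNA, values per siRNA are ratios of depth-scaled counts with exact 95% binomial or Poisson intervals (SciPy 1.17.1), or differences in log2 CPM (prior count 2). Levels per length divide CPM by exonic kilobases.

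The genes and lists were chosen with earlier results of these data known. All 10 genes are named; of a list, genes with at least 10 counts in a library may be named; so may adjacent gene models and the 8 genes most alike. Promoter sequences are from RefSeq (GRCh38.p14), matched by symbol for 9 of 10 genes. The tighter repeat, and the 4-fold counts without genes with an opposite-strand partner, and the counts beyond counting error over all genes, were added after seeing the data. Some genes of the lists are not reported here.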

Additional observations from a re-analysis of the deposited data

How the results depend on the processing

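The count of genes called by edgeR stayed at 0 with DESeq2 size factors, with total counts only, without a filter, with DESeq2 and with opposite-strand pairs left out, and was 32 with the older quasi-likelihood fit; the cause was not tested. Genes at least 4-fold higher with siPRMT6-1 numbered 57 with a prior count of 0.5 and 29 without a filter, against 13. The summed counts of the 10 genes with siPRMT6-2 were 74.2 times siNC without ZC3HAV1, the gene with the most counts, against 17.5, since ZC3HAV1 holds 21 of the 25 counts in siNC. The other settings, rescaling included, gave sums of 17.1 to 17.5 times siNC with siPRMT6-2 and 97 to 171 genes at least 4-fold higher, against 114. Without a filter SAMD9 also counted, which made 7 genes 4-fold higher with siPRMT6-2. The fitted log2 change of the 6 tested genes lay between 2.58 and 9.76 without the siPRMT6-1 library. Without the siPRMT6-2 library it lay between 0.00 and 0.37. These values have no test, since no residual degree of freedom is left. Those from 7.71 to 9.76 are of RSAD2, MX2, ISG20 and SAMD9L, which had 0 counts in siNC. Their size depends on the small count added in the fit and is not a measured fold. The only siNC library cannot be left out. None of the 10 genes is in an opposite-strand pair, so that alternative was not run for the sum. No paired analysis was possible because the groups share fewer than 2 replicate numbers. Depth limits every gene at 0: under 3 counts a signal was not detectable.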

Other observations

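Beside the effector genes, the 28 genes with at least 10 counts in siPRMT6-2 and 0 in both other libraries held chemokine genes, which draw leukocytes to infected tissue. CCL5 had 74 counts in siPRMT6-2, CCL3L1 50, CCL3 28 and CCL3L3 21, and the CCL3 family shares near-identical sequence. NLRC5, the transactivator of MHC class I genes, had 20 counts, UBA7, the enzyme that activates ISG15, had 16, and the complement gene C3 had 13. SCN3A, a sodium channel gene, had 14, and C20orf195 had 13. None of the 28 shares exon bases with an opposite-strand gene of the table. These genes were picked for their counts in these libraries, and the values are a description.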
